A study of Mus musculus with 22 samples.

Results

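Heat-shock chaperone genes were followed across 4 groups of mouse hypothalamus arrays that cross genotype with treatment. The members were Hspa5, Hspa8, Hsp90aa1, Hsp90ab1, Hspb1, Hsph1, Hspd1, Dnaja1, Dnajb1 and Bag3, taken by symbol from the array's annotation, and probe sets with a single symbol were averaged per gene. Of the 10 genes, 9 were measured among 19935 genes in all, and Hsp90ab1 was not analysed here. The study asked whether genes that differ between genotypes once LPS is given might underlie the lack of fever in animals without interleukin-6 (IL-6). Male C57bl6 mice aged 9 to 12 weeks, either IL-6 KO (deficient in IL-6) or wild-type (WT) littermates from the same parents, were housed singly. Each was injected once into the peritoneum with lipopolysaccharide (LPS) from Escherichia coli, a bacterial cell wall component that causes inflammation, at 120 µg/kg, or with saline, and was killed 3 h later and perfused with saline. LPS was given to 7 WT and 7 KO, and saline to 4 WT and 4 KO, counted as arrays. Which part of the IL-6 gene was altered is not in the labels, and neither is a statement that every array is its own animal. The p-values here therefore describe array-to-array spread.

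Chaperones bind unfolded or partly folded proteins and help them fold, move between compartments or be degraded. Many of their genes carry heat shock elements, repeats of a short motif bound by the heat shock factor HSF1, and are induced by heat and by damaged protein. The endoplasmic reticulum has chaperones of its own, among them the product of Hspa5, which is induced through the unfolded protein response. In brain many of these genes are expressed without stress, and fever-range warming is a known inducer of the heat shock response in mammals.

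Promoter sequences are shown for the members because several moved together across array numbers and Bag3 moved against them, as given further on. They are RefSeq sequences of the build GRCm38.p6, and each is a window of 30 bases on the gene's strand, read from 250 bases before to 50 bases after the annotated start, with motif letters in capitals. All motifs were searched on both strands. Hspb1, Dnaja1 and Bag3 held the paired heat shock element GAANNTTC, where N is any base, which 7.86% of 32851 promoters of that length held. Hspd1 and Hsph1 held the triple element, the paired one followed after 2 bases by a further GAA, found in 0.603%. Hspa5 held the endoplasmic reticulum stress response element, CCAAT followed after 9 bases by CCACG, found in 0.119%.
Hspd1, chr1:55088053-55088082, minus strand: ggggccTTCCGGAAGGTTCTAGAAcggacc
Hsph1, chr5:149636287-149636316, minus strand: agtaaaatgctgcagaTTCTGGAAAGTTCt
Hspb1, chr5:135887801-135887830, plus strand: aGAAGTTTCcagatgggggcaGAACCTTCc
Dnaja1, chr4:40722333-40722362, plus strand: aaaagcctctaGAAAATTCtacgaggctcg
Bag3, chr7:128523603-128523632, plus strand: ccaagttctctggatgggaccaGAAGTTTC
Hspa5, chr2:34772019-34772048, plus strand: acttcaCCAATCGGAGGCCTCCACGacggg

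The Hspd1 window lay between an annotated start of Hspd1 at base 55087932 and the start of its partner gene Hspe1 at base 55088148, which are read in opposite directions, and another Hspd1 start was annotated at base 55088243. It held 2 overlapping matches of the triple element. The Hspb1 window held 2 paired elements. The Hsph1 and Bag3 matches began at bases 37 and 43 of the gene, counted from an annotated start as base 1. Of 3 annotated Dnaja1 starts 1 had the match, of 2 Hspd1 starts 1, and of 2 Hsph1 starts both. No promoter of Dnajb1 held any of these letter patterns. Hspa8, Hsp90aa1 and Hsp90ab1 had no window. A match describes letters and does not show binding. Whether these motifs bear on the movement across array numbers was not tested.

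Values are log2 differences from the median array of each probe set, as deposited, so they carry differences only, and levels of different genes cannot be compared. Presence of a tissue's markers cannot be checked from such values. Il6 itself did not separate the labels: it ranged from -0.10 to 0.28 in WT after LPS, from -0.006 to 0.61 in KO after LPS, and below -0.07 on all saline arrays of both genotypes. Genes of neighbouring tissue stood high on single arrays: the mean of 6 choroid plexus genes reached 1.32 in WT saline replicate 1, and that of 6 pituitary genes reached 1.37 in KO saline replicate 2 and 1.21 in KO LPS replicate 3. The array titles also carry a number from 1 to 22 whose meaning is not stated. Arrays 1 to 11 held 8 WT and 3 KO arrays, and arrays 12 to 22 held 3 WT and 8 KO arrays. Between these blocks 4286 genes, 21.5% of all, differed at an adjusted p under 0.05 (limma, with the 4 group means in the fit). With arrays there is no depth to give, and precision is limited by how many there were. In whole tissue, fewer cells of a type and less RNA per cell cannot be told apart.

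**Figure D1:**
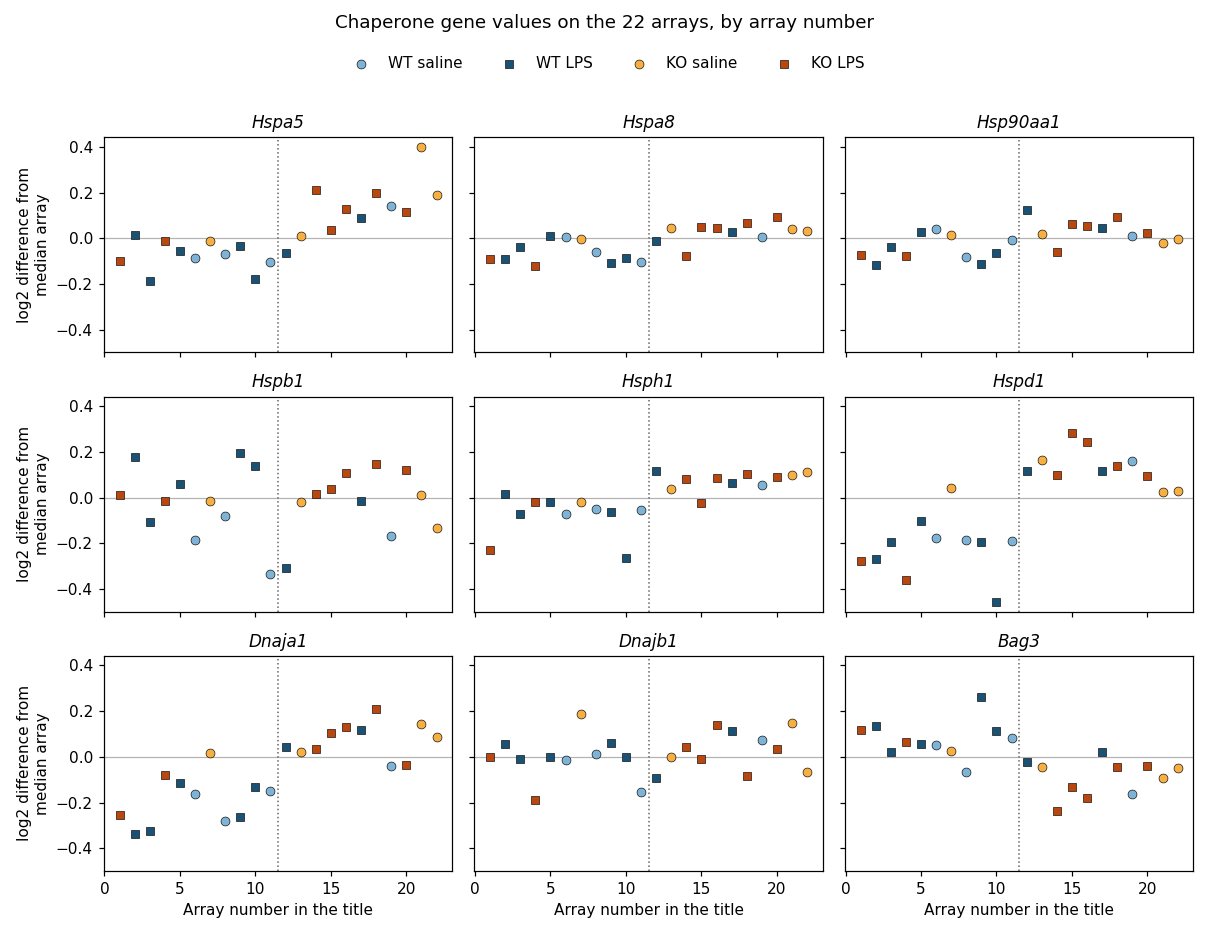
Each panel plots 1 chaperone gene. The x axis is the array number in the title, the y axis the log2 difference from the median array, each point 1 array, colour and shape its group, and the dotted line separates arrays 1 to 11 from arrays 12 to 22. Hspd1 lay between -0.46 and 0.04 to the left of the line and between 0.03 and 0.28 to the right of it, whereas Dnajb1 overlapped widely.

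LPS left the chaperone genes close to their saline values in WT mice. None of 9 members passed the test, against 1.80% of all genes (limma, 1 mean per group, adjusted p under 0.05 over all genes). Differences ran from -0.04 to 0.21, and their median of -0.0007 lay beside -0.01 over all genes. The largest change that any member's 95% confidence interval allowed was 1.28-fold. An unadjusted p under 0.05 was reached by 1 member, Hspb1, and by 6.42% of all genes.

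Hspb1 (NCBI gene 15507, chromosome 5) encodes a small heat-shock protein that holds unfolded proteins in a soluble state. In WT its values were -0.19, -0.08, -0.33 and -0.17 after saline. After LPS they ran from -0.31 through a median of 0.06 to 0.19. Of the 7 LPS arrays, 5 lay above every saline array, while WT LPS replicate 6 at -0.31 and replicate 2 at -0.11 lay inside the saline range. The WT difference was 0.21 (SE 0.07, 1.16-fold, limma adjusted p = 0.272), with an exact permutation p of 0.0697 (two-sided, 330 regroupings).

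Without WT LPS replicate 6 the Hspb1 difference was 0.27 (limma adjusted p = 0.0122), so its call depends on that array. The share of all genes called without that array was not counted. Adjusted p ran from 0.0122 to 0.722 over the 22 fits that each left out 1 array. Within arrays 1 to 11 the WT difference was 0.29 (limma adjusted p = 0.0853), and within arrays 12 to 22, which hold 2 LPS arrays and 1 saline array, it was 0.007. The separate probe sets of Hspb1 gave 0.21 and 0.21 and correlated at r = 0.959 over the 22 arrays. Markers of other cells moved on the same arrays: all 7 endothelium markers were called lower after LPS in WT, their mean lying between 0.40 and 0.56 on saline arrays and between -0.30 and -0.22 on LPS arrays. In KO 6 of the 7 were called lower. Of 6 microglia markers 1 was called lower in WT and none in KO. The part of these markers in the Hspb1 values was not tested.

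In KO mice LPS also gave no called member, against 1.34% of all genes. Differences ran from -0.08 to 0.10, with a median of -0.03 beside -0.009 over all genes. The largest change inside any 95% interval was 1.21-fold, and no member had an unadjusted p under 0.05, against 5.84% of all genes. Hspb1 values were -0.01, -0.02, 0.01 and -0.13 after saline and ran from -0.02 through a median of 0.04 to 0.15 after LPS. The ranges overlapped. The Hspb1 difference was 0.10 (SE 0.07, limma adjusted p = 1), and the exact permutation test, unadjusted, gave p = 0.0364.

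Averaged over both genotypes, no member passed the LPS test, against 2.76% of all genes. Hspb1 had 0.16 (SE 0.05, limma adjusted p = 0.154), and 0.18 without WT LPS replicate 6 (limma adjusted p = 0.00955), a fit whose share of all genes called was not counted. The range over the fits without 1 array was 0.00955 to 0.363. The other 8 members lay between -0.05 and 0.04. The interaction test, which asks whether the LPS effect differs between KO and WT, called no member (differences from -0.13 to 0.01, limma adjusted p = 1), as for all genes, of which 0 were called and 327 had an unadjusted p under 0.05.

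**Figure D2:**
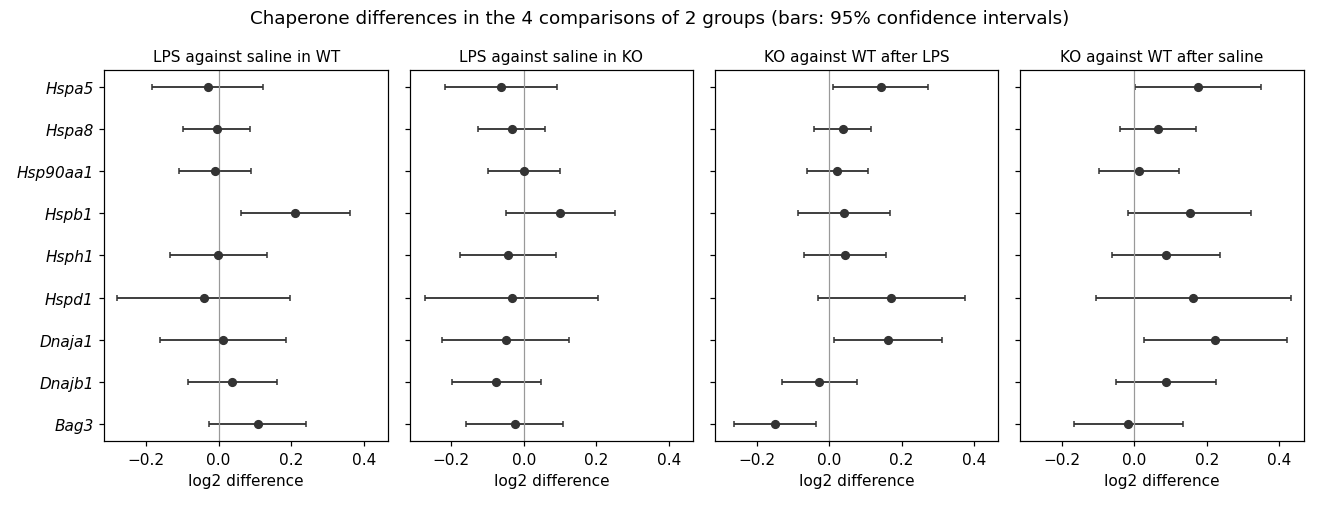
Each panel shows 1 comparison of a pair of groups, with the log2 difference on the x axis and the 9 chaperone genes on the y axis. Points are limma estimates and bars 95% confidence intervals. In the panels of LPS against saline, Hspb1 in WT lies at 0.21 and every other point lies between -0.08 and 0.11.

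Between the genotypes after LPS, which is the comparison the study was set up for, no chaperone gene passed the test, against 0.0401% of all genes. Members ran from -0.15 for Bag3 to 0.17 for Hspd1, 7 of 9 being higher in KO, with a median of 0.04 beside -0.002 over all genes. The largest change inside any 95% interval was 1.30-fold. An unadjusted p under 0.05 was reached by 3 members, Bag3, Dnaja1 and Hspa5, and by 11.4% of all genes. With the array block as a term in the fit no member had one.

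Hspa5 (NCBI gene 14828, chromosome 2) encodes BiP, the main Hsp70 chaperone of the endoplasmic reticulum. After LPS it ran from -0.19 through -0.06 to 0.09 in WT and from -0.10 through 0.12 to 0.21 in KO. The ranges overlapped, and the lowest KO values, -0.10 and -0.01, belonged to the KO arrays with numbers up to 11. The difference was 0.14 (SE 0.06, limma adjusted p = 0.417, exact permutation p = 0.0303 unadjusted). It was 0.07 with array block as a term, 0.03 within arrays 1 to 11 and 0.13 within arrays 12 to 22.

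Dnaja1 (NCBI gene 15502, chromosome 4) encodes a J-protein that delivers clients to cytosolic Hsp70 and stimulates its ATPase. It ran from -0.34 through -0.13 to 0.12 in WT after LPS and from -0.25 through 0.04 to 0.21 in KO after LPS. The highest WT arrays, replicates 6 and 7, were those numbered above 11. The difference was 0.16 (SE 0.07, limma adjusted p = 0.417, exact permutation p = 0.0962). With array block as a term it was 0.06, and within the blocks it was 0.07 and 0.009. The averaged probe sets gave 0.21 and 0.11. A further one, listed for both Mir207 and Dnaja1, gave -0.13 and lowered the difference to 0.06 when averaged in.

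Hspd1 (NCBI gene 15510, chromosome 1) encodes the mitochondrial chaperonin Hsp60. After LPS it ran from -0.46 through -0.19 to 0.12 in WT and from -0.36 through 0.10 to 0.28 in KO. In both genotypes the arrays numbered above 11 were the positive ones and those numbered up to 11 the negative ones. The genotype difference was 0.17 (SE 0.10, limma adjusted p = 0.509, exact permutation p = 0.188). It was 0.02 with array block as a term, -0.08 within arrays 1 to 11 and 0.05 within arrays 12 to 22, so its sign was not the same in the blocks.

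Bag3 (NCBI gene 29810, chromosome 7) encodes a co-chaperone that binds Hsp70 and small heat-shock proteins and directs clients to selective autophagy. After LPS it ran from -0.02 through 0.06 to 0.26 in WT and from -0.24 through -0.04 to 0.12 in KO. The KO arrays at 0.12 and 0.06 were again those numbered up to 11, and the other 5 were below 0. The difference was -0.15 (SE 0.05, limma adjusted p = 0.344, exact permutation p = 0.0315 unadjusted). It was -0.08 with array block as a term (limma adjusted p = 0.974), -0.03 within arrays 1 to 11 and -0.13 within arrays 12 to 22.

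After saline no member passed the test between genotypes either, against 0.00502% of all genes. Members ran from -0.02 to 0.22, 8 of 9 being higher in KO, with a median of 0.09 beside -0.002 over all genes, and the largest change inside any 95% interval was 1.35-fold. An unadjusted p under 0.05 was reached by 2 members, Dnaja1 and Hspa5, and by 5.17% of all genes. Dnaja1 was -0.16, -0.28, -0.15 and -0.04 in WT and 0.02, 0.02, 0.14 and 0.09 in KO. It was the 1 member whose groups did not overlap, a pattern that 2.97% of all genes showed. Its difference was 0.22 (SE 0.09, limma adjusted p = 0.84), and its exact permutation p of 0.0286 is the smallest that 70 regroupings allow. With array block as a term the difference was 0.11. The averaged probe sets were unequal, at 0.37 and 0.08, and the one shared with Mir207 gave -0.14, which lowered the difference to 0.10 when averaged in (limma adjusted p = 0.849).

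Hspa5 after saline was -0.09, -0.07, -0.10 and 0.14 in WT and -0.01, 0.01, 0.40 and 0.19 in KO. The highest WT value was on the 1 WT saline array numbered above 11, and the highest KO values were on arrays 21 and 22. The difference was 0.18 (SE 0.08, limma adjusted p = 0.84), or 0.09 with array block as a term. For Hspb1 it was 0.15 (SE 0.08, limma adjusted p = 0.84), or 0.18 with the block, so the block did not shrink it.

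Averaged over treatments, no member passed the genotype test, against 0.0251% of all genes. The widest differences were 0.19 for Dnaja1 (SE 0.06, limma adjusted p = 0.18), 0.17 for Hspd1 (SE 0.08, limma adjusted p = 0.311) and 0.16 for Hspa5 (SE 0.05, limma adjusted p = 0.188). Those 3 were called when arrays were weighted by their fit, with limma adjusted p of 0.017 for Dnaja1, 0.0333 for Hspa5 and 0.0404 for Hspd1. That weighting called 10.3% of all genes in this comparison. With array block as a term they were 0.09, 0.007 and 0.08, with limma adjusted p between 0.861 and 0.999. With the probe set shared with Mir207 averaged in, Dnaja1 had 0.08 (limma adjusted p = 0.279). Hspb1 had 0.10, or 0.12 with the block, and Bag3 had -0.08, or -0.01 with the block. Because the 22 arrays are spread unevenly over the blocks, a genotype difference of these members and a difference by array number can be told apart only in part.

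The chaperone genes did differ by array number. With the 4 group means in the fit, 6 of 9 members were called between arrays 12 to 22 and arrays 1 to 11, against 21.5% of all genes. The 5 members that rose were Hspd1, Dnaja1, Hspa5, Hsph1 and Hspa8, against 10.9% of all genes called higher, and Bag3 fell, against 10.6% called lower. The members and the split at array 11 were chosen with earlier results of these data known, so the count is a description. No member's blocks were free of overlap, which held for 1.18% of all genes.

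Hspd1 had the widest difference. It ran from -0.46 through -0.19 to 0.04 on arrays 1 to 11 and from 0.03 through 0.12 to 0.28 on arrays 12 to 22. Of the lower-numbered arrays only KO saline replicate 1, at 0.04, was above 0, and it alone reached the range of the others. The difference was 0.34 (SE 0.05, 1.27-fold, limma adjusted p = 7.67e-05), and the separate probe sets gave 0.37 and 0.32. The block took up 57.4% of this gene's total spread over arrays, in addition to the 18.2% that lay between the group means.

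Dnaja1 ran from -0.34 through -0.16 to 0.02 on the lower-numbered arrays and from -0.04 through 0.09 to 0.21 on the others, a difference of 0.23 (SE 0.04, limma adjusted p = 0.000831). Its single-symbol probe sets correlated at r = 0.722 and gave 0.25 and 0.20. The probe set shared with Mir207, left out of the average, ran against them (r = -0.508 and r = -0.684), with a difference of -0.12 that was not called. Averaged in, it lowered the Dnaja1 difference to 0.11, which was still called (limma adjusted p = 0.0195).

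Hspa5 ran from -0.19 through -0.07 to 0.01 on arrays 1 to 11 and from -0.06 through 0.13 to 0.40 on arrays 12 to 22. The blocks overlapped through WT LPS replicate 6 at -0.06 and KO saline replicate 2 at 0.01. The difference was 0.17 (SE 0.04, limma adjusted p = 0.00752).

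Hsph1 (NCBI gene 15505, chromosome 5) encodes an Hsp110 protein that works as a nucleotide exchange factor for Hsp70. It ran from -0.26 through -0.05 to 0.02 and from -0.02 through 0.09 to 0.12, so 10 of the 11 higher-numbered arrays lay above every lower-numbered one. The difference was 0.16 (SE 0.04, limma adjusted p = 0.00353).

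Hspa8 (NCBI gene 15481, chromosome 9) encodes Hsc70, the constitutive cytosolic Hsp70 that also strips clathrin from vesicles. It ran from -0.12 through -0.09 to 0.008 and from -0.08 through 0.04 to 0.09, a difference of 0.09 (SE 0.03, limma adjusted p = 0.0361). That call was lost in 8 of the 22 fits that left out 1 array: KO LPS replicates 1, 2, 4, 5, 6 and 7, WT LPS replicate 7 and WT saline replicate 4. Over the 22 fits the difference stayed between 0.07 and 0.10 and the limma adjusted p between 0.0187 and 0.117. Of its 3 single-symbol probe sets 1 was called, at 0.13. A pair of probe sets listed with Snord14c and Snord14d as well gave 0.18 and 0.18, not called, and held the same pattern as each other (r = 1).

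Bag3 ran the other way. It lay from -0.06 through 0.06 to 0.26 on arrays 1 to 11 and from -0.24 through -0.05 to 0.02 on arrays 12 to 22. It was positive on 10 of the 11 lower-numbered arrays and on 1 of the others, WT LPS replicate 7. The difference was -0.16 (SE 0.04, limma adjusted p = 0.00367).

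The remaining 3 members did not pass. Hsp90aa1 (NCBI gene 15519, chromosome 12), the stress-inducible form of cytosolic Hsp90, had 0.09 (SE 0.03, limma adjusted p = 0.0563). It was called without KO LPS replicate 3, KO saline replicate 1, WT LPS replicate 3 or WT saline replicate 1, and its limma adjusted p ran from 0.024 to 0.162 over all 22 such fits. Hspb1 had -0.05 (SE 0.05, limma adjusted p = 0.567). Dnajb1 (NCBI gene 81489, chromosome 8), a J-protein that activates Hsp70 and is strongly heat-inducible, had 0.03 (SE 0.04, limma adjusted p = 0.739). Its values ran from -0.19 to 0.19 on arrays 1 to 11 and from -0.09 to 0.15 on arrays 12 to 22. The block took up 2.02% of its spread and 2.93% of that of Hspb1, against 29.9% to 57.4% for the other 7.

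**Figure D3:**
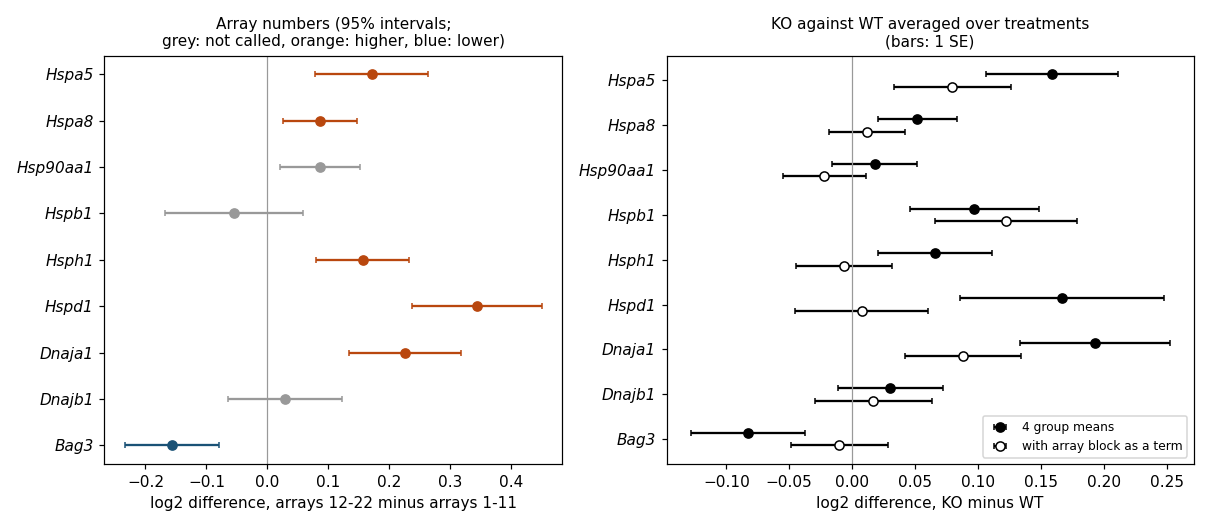
The left panel plots the log2 difference of arrays 12 to 22 from arrays 1 to 11 for each chaperone gene, with 95% confidence intervals. The right panel plots the KO against WT difference averaged over treatments, with bars of 1 SE, from group means alone (filled) and with array block as a term (open). Hspd1 moves from 0.17 to 0.007 and Dnaja1 from 0.19 to 0.09 between filled and open points, while Hspb1 moves from 0.10 to 0.12.

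Spread over all arrays set the members apart. The SD over 22 arrays was 0.21 for Hspd1, higher than in 96% of genes, and 0.07 for both Hspa8 and Hsp90aa1, higher than in 10.8% and 11% of genes. After removal of the 4 group means, 12 of 36 pairs of members correlated above 0.5 and 3 below -0.5 over the 22 arrays. The highest r was that of Hspa8 with Hsp90aa1, which act in 1 folding cycle (r = 0.784), and the lowest that of Hspd1 with Bag3 (r = -0.708). With the array block removed too, 4 pairs stayed above 0.5 and none below -0.5, and the median fell from 0.246 to 0.071. Hspa8 with Hsp90aa1 then had r = 0.642. All points share arrays and their normalization, so these values are descriptions. The share of all gene pairs above 0.5 was not computed. For each member the most correlated gene lay outside the members, as given below.

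**Figure D4:**
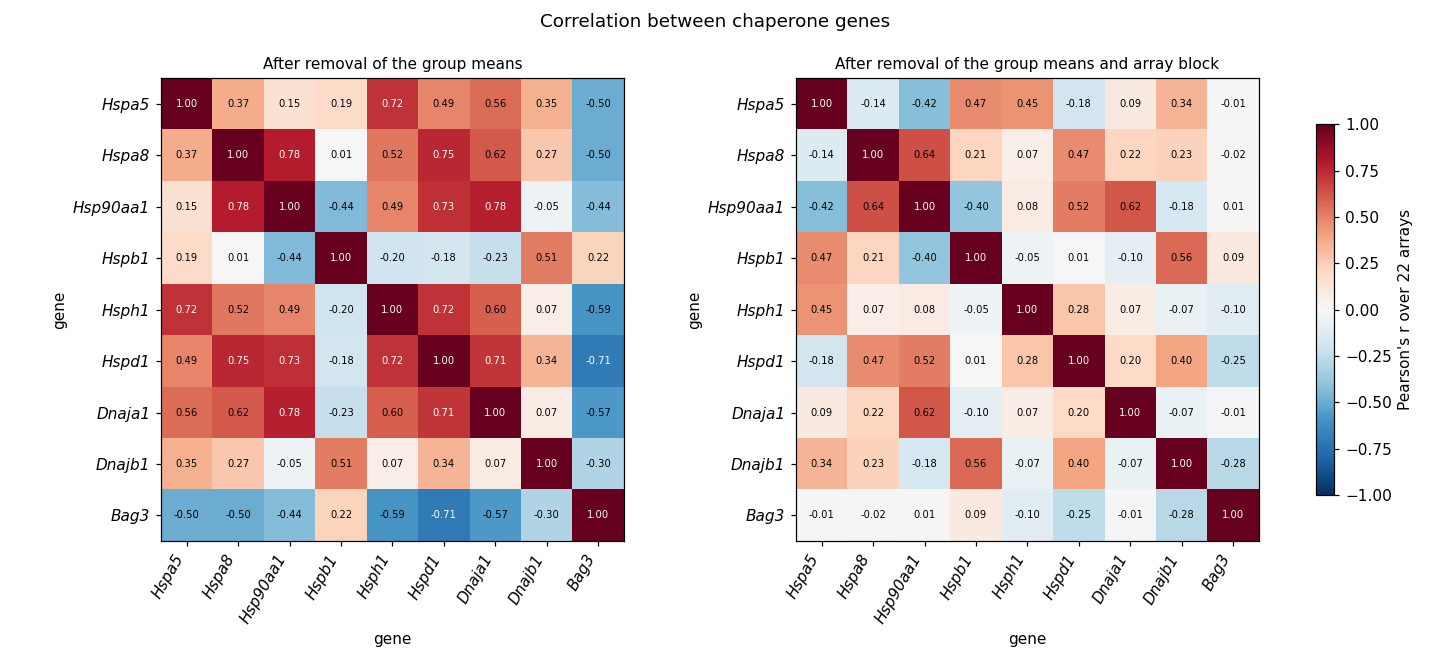
Each cell gives Pearson's r between a pair of chaperone genes over 22 arrays, red for positive and blue for negative values. On the left the group means are removed, on the right the array block as well. The blue row of Bag3 on the left, down to -0.71 with Hspd1, is pale on the right, while Hspa8 with Hsp90aa1 stays at 0.64.

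Genes outside the members with the pattern most like the members' mean, over 22 arrays without group means, were Srsf10 (r = 0.963), a splicing factor dephosphorylated on heat shock, Naa20, Asf1a, Pnrc2, Rraga, Eif2s3x, Hikeshi and Ugcg (r = 0.948). Hikeshi encodes the carrier that brings Hsp70 into the nucleus under heat stress. The list was taken by correlation alone, and heat-shock links of its other genes were not examined. How many further genes had an r close to these was not counted. With the array block removed too, their r with that mean was 0.867 to 0.914. They were higher on arrays 12 to 22 by 0.22 to 0.38, a direction that the choice of genes like the members' mean largely sets. For single members the closest were Sucla2 for Hspd1 (r = 0.959), 2010204K13Rik for Hsph1 (r = 0.932), Fam126b for Hsp90aa1 (r = 0.927), Akr1e1 for Hspa8 (r = 0.907), Arxes1 for Hspa5 (r = 0.889) and Fkbp3 for Dnaja1 (r = 0.885). They were Shb for Bag3 (r = 0.848), Mif for Hspb1 (r = 0.833) and Med23 for Dnajb1 (r = 0.781). With the array block removed too, these single-member r were lower, from 0.638 for Shb with Bag3 to 0.884 for Fam126b with Hsp90aa1.

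Other stress genes were counted in 4 lists beside the members. Of 32 measured cytosolic and nuclear heat-shock genes, none was called after LPS in either genotype. Averaged over genotypes, Hspa12b, an Hsp70 relative of endothelial cells, fell by 0.25 (SE 0.06, limma adjusted p = 0.00984), and the 7 endothelium markers fell with it. Their part in that result was not tested. The inducible Hsp70 gene Hspa1a had -0.15 in WT (limma adjusted p = 0.809) and 0.10 in KO (limma adjusted p = 1). Of 14 mitochondrial and chaperonin partners none was called after LPS, with medians of -0.06 in WT and -0.04 in KO. The smallest p in WT belonged to Dnaja3 at -0.09 and Hspe1 at -0.15.

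Of 25 endoplasmic reticulum stress genes, 1 rose after LPS in each genotype, beside the 1.80% of all genes called in WT and 1.34% in KO. Herpud1, part of the machinery that returns misfolded proteins to the cytosol for degradation, rose by 0.27 in WT (SE 0.06, limma adjusted p = 0.0108) and by 0.28 in KO (SE 0.06, limma adjusted p = 0.0101), while Hspa5 had -0.03 and -0.06. Of 8 comparison genes linked to glucocorticoids or temperature, 4 rose in both genotypes: Sgk1, Zbtb16, Fkbp5 and Tsc22d3. Averaged over genotypes they rose by 1.74, 1.44, 0.96 and 0.60. The rest of that list, Cirbp, Rbm3, Per1 and Serpinh1, was not called with LPS in the fit on group means. Fkbp5 encodes a co-chaperone of Hsp90 in the glucocorticoid receptor complex.

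No gene of the 4 lists was called between genotypes by limma after LPS, after saline or averaged, while 23, 7 and 31 of 79 had an unadjusted p under 0.05, beside 11.4%, 5.17% and 16.3% of all genes. The median difference of the 79 was 0.07 after LPS, 0.07 after saline and 0.06 averaged, and 0.03 in each with array block as a term. With array weights 4 were called after LPS, against 3.08% of all genes, and 21 averaged over treatments, against 10.3%. Without KO LPS replicate 1, 3 were called averaged over treatments, against 0.868% of all genes. With array block as a term and no weights none was called in either comparison, against 0.0100% of all genes after LPS and 0.0150% averaged. The smallest p after LPS belonged to Cirbp, a cold-inducible RNA-binding protein, at 0.26 (SE 0.06, limma adjusted p = 0.194) and to Rbm3, another, at 0.15 (limma adjusted p = 0.328). In the other lists they were Fkbp4 at 0.12 and Hspa14 at 0.19, Hspe1 at 0.23 and Tcp1 at 0.14, and Syvn1 at -0.09 and Calr at 0.13. After saline they were Rbm3 at 0.17, Cirbp at 0.17, Dnajb9 at 0.24, Pdia4 at 0.12, Cdc37 at 0.14, Stub1 at 0.12, Cct8 at 0.19 and Cct3 at 0.14.

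By array number 34 of the 79 listed genes were called, 27 higher and 7 lower, against 10.9% of all genes called higher and 10.6% called lower. Among cytosolic and nuclear genes 14 rose and 6 fell of 32, against the 21.5% of all genes called in either direction. The widest were Chordc1 at 0.32, an Hsp90 co-chaperone, Dnajc7 at 0.27, Dnajb4 at 0.26, Bag1 at 0.25, Dnajb6 at 0.23 and the heat shock factor Hsf2 at 0.22. Those that fell included Dnajb2 and Hspb6, both at -0.19. Among mitochondrial and chaperonin partners 6 of 14 rose and none fell, against the 10.9% and 10.6% of all genes. Hspe1, which encodes the lid of the Hsp60 chamber and is read from the other side of the Hspd1 promoter shown above, rose by 0.25 (SE 0.06, limma adjusted p = 0.00433). The chaperonin ring genes Cct8, Cct6a, Cct2, Tcp1 and Cct7 rose by 0.23, 0.20, 0.20, 0.13 and 0.10. Of the 25 endoplasmic reticulum genes 7 rose and none fell, against the same shares of all genes. They were Hspa13 at 0.20, Pdia3 and Dnajc3 at 0.17, Hsp90b1, Calr and Canx at 0.15 and Sel1l at 0.13. The comparison genes had Per1 lower at -0.33.

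Of 48 measured markers of cell types and neighbouring tissue, 7 were called by array number, 14.6% against 21.5% of all genes. None of 6 choroid plexus, 6 pituitary and 6 microglia markers was called, nor the 1 measured marker of red blood cells. Of endothelium markers 1 of 7 was called, of astrocytes 1 of 5, of oligodendrocytes and neurons 1 of 4 each, and of hypothalamus 3 of 9. The mean of the neuron markers ran from -0.09 to 0.11 on arrays 1 to 11 and from -0.22 to 0.09 on arrays 12 to 22. For the astrocyte markers the ranges were -0.12 to 0.04 and -0.16 to 0.09, and for the endothelium markers -0.29 to 0.63 and -0.30 to 0.61. The oligodendrocyte markers ran from -0.23 to 0.19 and from -0.26 to 0.29, and the hypothalamus markers from -0.16 to 0.15 and from -0.12 to 0.25. The pituitary markers ran from -0.20 to 0.15 and from -0.11 to 1.37. KO saline replicate 2 and KO LPS replicate 3, where they were high, are arrays 13 and 14. The choroid plexus markers ran from -0.10 to 1.32 and from -0.25 to 0.37, and the microglia markers from -0.12 to 0.11 and from -0.14 to 0.14. Each of these ranges overlapped between the blocks. Blocks free of overlap were rare, at 1.18% of all genes, and the called chaperone members overlapped too. Overlap therefore cannot show that marker content was alike in the blocks. Both blocks also hold saline and LPS arrays, and group means were not removed from these ranges, which matters for the endothelium markers, as they differed by treatment. The part of the markers in the chaperone values was not tested.

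**Figure D5:**
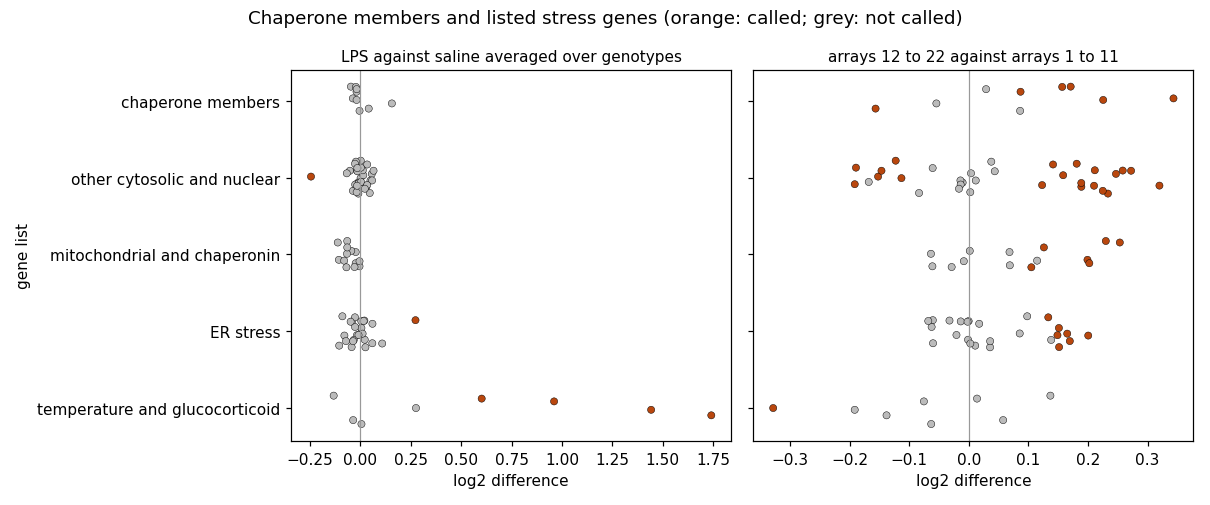
Points are genes, in 1 line per list, with the log2 difference on the x axis for LPS against saline averaged over genotypes (left) and for arrays 12 to 22 against arrays 1 to 11 (right). Orange points were called and grey points were not, and the vertical scatter within a line has no meaning. On the left no chaperone member is orange, while Sgk1 lies at 1.74. On the right 6 of the 9 members are orange.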

How the data were processed

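The deposited table holds log2 values, 28815 probe sets by 22 arrays. It was made by the authors with RMA (background correction, normalization and probe summary; no version), per the submitters' processing notes. For build and annotation the status is: not given in the sources used here. No log base is stated, and 2 was assumed. Each probe set's median over the arrays is 0 (largest deviation 7.02e-07), so the deposited log2 values are differences between arrays. Symbols came from the platform annotation, updated through RefSeq by gene ID (21689 of 21780 single-symbol probe sets matched). Probe sets with several symbols (1605) or none (5430) were left out, and 19935 genes were tested.

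Tests used limma 3.58.1 in R 4.3.3 on 4 group means over 22 arrays, with Benjamini-Hochberg adjustment over all genes and calls at an adjusted p under 0.05. Errors with differences are standard errors. Confidence intervals are 95% and unadjusted. The contrast of array blocks added block to the group means. Exact permutation tests, two-sided and unadjusted, compared pairs of groups. The code was tested on simulated data.

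The members and lists were chosen with earlier results of these data known. Named are the members; called genes of each list, up to 6 by size, or else the 2 with the smallest p; the 8 genes most correlated with the members' mean; and the 1 most correlated with each member. Hspa1a, the classic inducible Hsp70 gene, was added outside that rule after its values were seen, and some listed genes without a call were left out for length. Alternatives were the array block as a term, single blocks, array weights, robust moderation, quantile and median normalization, the median of probe sets, single probe sets, several-symbol probe sets, the compared groups alone, leaving out 4 arrays with carry-over genes, and leaving out each array.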

Additional observations from a re-analysis of the deposited data

Results flagged for a closer look

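In 4 of 36 combinations of a member and a group, 1 array stood far from the rest of its group, and chance marks about 1 in 20. Hspd1 in WT saline replicate 4 was 0.16, while the other 3 arrays lay between -0.19 and -0.18. Hspa5 in the same array was 0.14, against -0.10 to -0.07 on the others. That array is the 1 WT saline array numbered above 11. Hspd1 in KO saline replicate 2 was 0.16, against 0.03 to 0.04 on the other 3, and this array also had high pituitary genes. Hsph1 in KO LPS replicate 1 was -0.23, against -0.02 to 0.10 on the other 6.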

How the results depend on the processing

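No paired analysis was possible because array numbers are unique and the labels number no replicates across groups. With 1 array left out in turn, the number of members called stayed at 0 in KO after LPS, in the genotype comparisons and in the interaction. It was 0 to 1 in WT after LPS and in the LPS effect averaged over genotypes, the 1 being Hspb1 without WT LPS replicate 6, and 5 to 7 by array number. How many of all genes gained a call without WT LPS replicate 6 was not counted. By exact permutation at an unadjusted p under 0.05, 1 member passed in KO after LPS, 2 between genotypes after LPS and 1 between genotypes after saline. That test was run on the members only, so the share of all genes passing it is not known. An unadjusted limma p under 0.05 was reached by 5.84%, 11.4% and 5.17% of all genes in these comparisons. With array weights 3 members were called between genotypes averaged over treatments. Other settings gave 5 to 7 members by array number and 0 in the remaining comparisons, among them the fit without the 4 arrays with high choroid plexus or pituitary genes. The sign of Hspd1 turned between genotypes within single blocks: -0.077 after LPS within arrays 1 to 11, and -0.016 averaged over treatments within arrays 12 to 22, both uncalled. Other genotype differences also had opposite signs in arrays 1 to 11 and arrays 12 to 22. After LPS, Hspb1 had -0.095 and 0.25 in that order. After saline, where each block has a group of 1 array, Hspd1 had 0.22 and -0.09 and Dnajb1 had 0.24 and -0.05. LPS effects of some members changed sign as well. In the same order, Hspd1 in KO had -0.36 and 0.10, and Dnaja1 in WT had -0.04 and 0.12. In both cases 1 of the blocks has a single saline array. The causes of these changes were not tested.

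Of the listed genes, 1 was called in WT after LPS within arrays 12 to 22 (5 in the fit reported above), where fewer samples enter, and 3 in KO after LPS with quantile normalization (5 above). Array weights gave 4 between genotypes after LPS and 21 averaged over treatments, against 0 in both. Without 1 array the last count was 0 to 3, the 3 being without KO LPS replicate 1. For 51 member values given as ranges, 141 of 1774 alternative values changed sign, none of them called. The 22 arrays limit the precision: intervals of the 9 members allow changes of up to 1.28-fold with LPS and 1.35-fold between genotypes.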
